A study of Mus musculus with 14 samples.

Results

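The first months of adult life were examined in HSC by setting 6-mo-old against 2-mo-old mice, with 2 arrays (A and B) at each age, 4 of the 14 arrays of the series. These arrays were taken by their titles, and all 22626 probe sets other than the array's own controls were compared. Both groups were HSC of WT male C57Bl/6 mice with no treatment named, so age is the only labelled difference between them. The series also held WT HSC of 12 and 21 mo, WT whole bone marrow (WBM) of 2 mo, and 12-mo-old HSC labelled p53m and p53_het, each on 2 arrays of the Affymetrix MOE430A type. HSC were sorted as side population cells that were also c-Kit-positive, Sca-1-positive and negative for lineage markers. Each HSC array held RNA pooled from several mice and amplified repeatedly in vitro before labeling, and p-values measure the spread between such pools. One label field gives an age of 2 mo to every sample, whereas titles and treatment fields give the ages used here.

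HSC are the rare, mostly quiescent marrow cells from which all blood lineages are renewed. In the mouse, 2 mo is young adulthood, soon after the switch from the fast-cycling HSC of fetal and early postnatal life to the slow-cycling adult type, and 6 mo is mature adulthood, well before old age. The side population gate uses the ability of HSC to pump out the dye Hoechst, a property that depends on ABC transporters, and the lineage antibodies are meant to remove granulocytes, lymphocytes and erythroid cells.

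Values are log2 GC-RMA levels, in which a difference of 1 is a 2-fold change and levels below about 5 lie near the floor of the array. On the 6 mo arrays 43.5% and 43.6% of probe sets reached log2 5, against 43.3% and 43.3% on the 2 mo arrays. Arrays A and B of an age differed by a median of 0.0813 at 6 mo and 0.0589 at 2 mo, while the 12 mo pair differed by 0.21. On the first principal component of the 8 WT HSC arrays, the 6 mo arrays lay at −33.0 (A) and −16.9 (B), against −51.7 and −53.1 for the 2 mo arrays and 70.1 and 67.1 for the 21 mo arrays. Control probe sets differed too. All 18 probe sets for the spiked-in hybridization controls were lower on both 6 mo arrays than on both 2 mo arrays, by a median of −0.949. The probe set for the 5′ part of 18S rRNA read 11.19 and 8.28 at 6 mo, against 10.91 and 10.88 at 2 mo, so that 6 mo B stood apart from these. The 21 mo arrays read lower still, at 4.84 and 5.44. The part of RNA quality or hybridization in the results was not tested.

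Very little passed the adjusted test. With limma over the 8 WT HSC arrays and Benjamini-Hochberg adjustment over all probe sets (adjusted p under 0.05 and at least 2-fold), 0 probe sets rose (0.0%) and 2 fell (0.00884%) at 6 mo. With p left unadjusted (under 0.05, at least 2-fold), 186 were higher (0.822%) and 77 were lower (0.34%). Counted without a test, 377 probe sets (1.67%) were at least 2-fold higher at 6 mo with both 6 mo arrays above both 2 mo arrays, and 162 (0.716%) were at least 2-fold lower with both below. Higher probe sets thus made up 69.9% of those 2-fold apart. The 12 mo pair, the most scattered of the WT ages, enters the shared estimate of the spread, and leaving it out gave 6 higher and 4 lower. A fit on the 4 arrays of 6 and 2 mo alone gave 0 and 0. Genes below are given by their values on each array, and unless a sentence says that a gene fell, it did not pass the adjusted test.

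The genes that fell were Exosc4, which encodes a core subunit of the RNA exosome, and Mmgt2, which encodes a membrane magnesium transporter. Exosc4 read 3.17 and 3.32 at 6 mo, against 5.57 and 5.84 at 2 mo. It was above the floor at 2 mo only, and at 12 and 21 mo it was lower still, at means of 2.22 and 2.19. The difference was −2.47 ± 0.10 (SE; limma adjusted p = 0.0367). Its other probe sets were near the floor at both ages and differed by −0.02 and −0.10. Mmgt2 read 1.87 and 1.87 at 6 mo, against 2.97 and 2.93 at 2 mo, all near the floor, a difference of −1.08 ± 0.03 (SE; limma adjusted p = 0.0113). Neither call held in every alternative, and both were lost without either 6 mo array or either 21 mo array, with the 6 mo and 2 mo arrays alone, or with each array shifted to one median, with Exosc4 at an adjusted p of 0.083 and Mmgt2 at 0.0571 without 6 mo B.

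The largest differences toward 6 mo included genes that went on to still higher levels later in life. Selp encodes P-selectin, an adhesion receptor of platelets and endothelium. On one probe set it read 8.06 and 7.06 at 6 mo, against 3.26 and 3.58 at 2 mo, and on the other 8.57 and 7.48, against 5.86 and 5.85. Both probe sets separated the ages, by 4.14 ± 0.56 and 2.17 ± 0.50 (SE; limma adjusted p = 0.326 and 0.74). Wwtr1, which encodes the transcriptional coactivator TAZ of the Hippo pathway, read 8.32 and 7.74 at 6 mo, against 3.71 and 4.25 at 2 mo. That difference, 4.05 ± 0.26, missed the threshold (limma adjusted p = 0.145) and passed with all 12 HSC arrays in the fit (0.00312), with all 14 arrays (0.000403) and with low probe sets left out (0.0343). Its other probe sets were near the floor at both ages. At 12 mo Wwtr1 read 10.08 and 10.02 and at 21 mo 10.69 and 10.85.

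Clu, Ptgs2 and Cavin2 took this course too. They were named after their values were seen, from lists of genes the study names with age or of platelet genes, and lists chosen on these samples are not independent evidence of a direction. Clu, the extracellular chaperone clusterin, read 9.42 and 7.96 at 6 mo, against 7.19 and 7.30 at 2 mo (difference 1.44 ± 0.54, SE), with means of 11.58 at 12 mo and 12.52 at 21 mo. Ptgs2, the inducible cyclooxygenase of prostaglandin synthesis, read 8.12 and 5.87, against 4.71 and 5.30 (1.99 ± 0.89). The other probe set of Ptgs2 was near the floor at both ages and differed by −0.06. Cavin2, a caveolar coat protein also found in platelets, read 9.73 and 8.59, against 7.35 and 7.79 (1.59 ± 0.49). In all 3 the A array of 6 mo was the higher one by more than 1 log2 unit, and the B array lay only a little above the 2 mo range for Clu and Ptgs2. Aldh1a1, a retinaldehyde dehydrogenase of stem and progenitor cells, was steadier, with 10.90 and 10.74 at 6 mo, against 8.26 and 8.57 at 2 mo (2.41 ± 0.35; limma adjusted p = 0.361). It came from neither list, and was named after its values were seen because it was called with all 14 arrays in the fit (limma adjusted p = 0.0303). Among the megakaryocyte and platelet markers as a whole, 2 of 24 measured genes, Selp and Cavin2, were 2-fold higher without overlap (8.33%, against 1.13% of all genes). The soluble guanylate cyclase subunit Gucy1a1 was the 1 lower (4.17%, against 0.831%), at 5.66 and 5.59, against 6.49 and 7.41, and 11 of the 24, with Gp9, Gp5, Itgb3 and Ppbp among them, stayed below log2 5 on all 4 arrays.

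**Figure D1:**
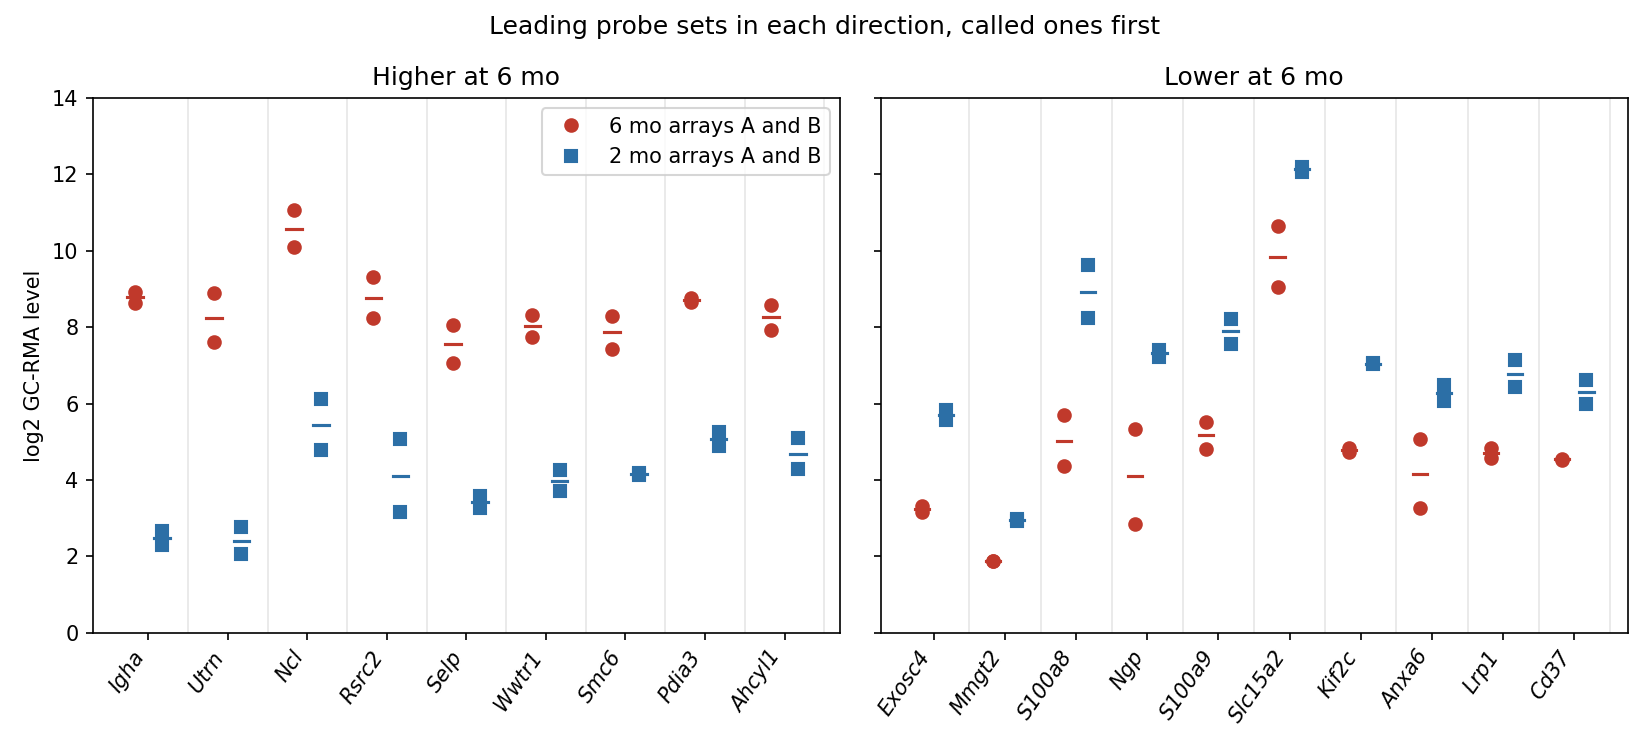
Log2 GC-RMA level (y axis) of 9 leading probe sets that were higher at 6 mo and 10 that were lower, called ones first, with 6 mo arrays as red circles left of 2 mo arrays as blue squares and short bars at the mean of 2 arrays. Only Exosc4 and Mmgt2 passed the adjusted test, and no 6 mo point lies within the 2 mo range of its gene.

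Many of the largest differences sat on 1 probe set of a gene that another probe set did not share. Utrn, which encodes the cytoskeletal linker utrophin, read 8.90 and 7.60 at 6 mo, against 2.76 and 2.05 at 2 mo (5.84 ± 0.54, SE; limma adjusted p = 0.158). On its strongest probe set it read 10.66 and 10.93, against 10.07 and 10.85, a difference of 0.33. Of its probe sets, one thus put Utrn at a high level at both ages and another put it near the floor at 2 mo.

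Further genes split in the same way. Ahcyl1, which binds the IP3 receptor, differed by 3.58 on one and by 0.07 on a stronger one. Rsrc2, an arginine and serine-rich coiled-coil protein, differed by 4.66 on the weaker and by 0.62 on the stronger of its probe sets. Dnmt3a, a de novo DNA methyltransferase, split otherwise. It differed by 3.30 on its strongest probe set, by −0.08 and −0.02 on the next ones in level, and by 1.39 and 0.45 on weaker ones. For Ncl and Smc6 the strongest probe set was higher too, by less than another one. Ncl, which encodes nucleolin, differed by 5.14 on one probe set, where it read 11.07 and 10.09 at 6 mo, against 6.11 and 4.78 at 2 mo. On its strongest it read 11.22 and 12.54, against 10.37 and 10.37, a difference of 1.51, and its other probe sets differed by 0.91 and 0.46. Smc6, a subunit of the SMC5/6 complex of DNA repair, differed by 3.70 on one probe set. Its strongest read 10.18 and 9.28 at 6 mo, against 8.26 and 7.43 at 2 mo, a difference of 1.89. Its other probe sets differed by 1.21, where the ages did not overlap, and by 0.04 and −0.38, where they did. Pdia3, an ER disulfide isomerase, has a single probe set here, which read 8.77 and 8.65, against 5.27 and 4.89 (3.64 ± 1.22, SE), and passed the test only when the 12 mo arrays were left out (limma adjusted p = 0.0428).

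Counted over the array, 339 of the 2-fold higher probe sets carried a single gene symbol, and for 199 of them (58.7%) the gene had a stronger probe set. Those 199 differed by a median of 1.45, whereas the stronger probe sets of the same genes differed by a median of 0.278, with 30 of them also 2-fold higher and 46 of opposite sign. Among the 144 lower probe sets with a single symbol, 41 (28.5%) had a stronger partner, which differed by a median of −0.661 beside −1.23. Over all probe sets with a single symbol the share with a stronger partner was 39.2%. Genes with a higher probe set spanned a median of 29.2 kb in the RefSeq annotation of GRCm38.p6, genes with a lower one 18.2 kb, and all genes measured 20.1 kb. Read on its strongest probe set alone, 1.13% of 12393 genes were 2-fold higher without overlap (140) and 0.831% lower (103), so that the excess of higher over lower was smaller among genes than among probe sets.

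**Figure D2:**
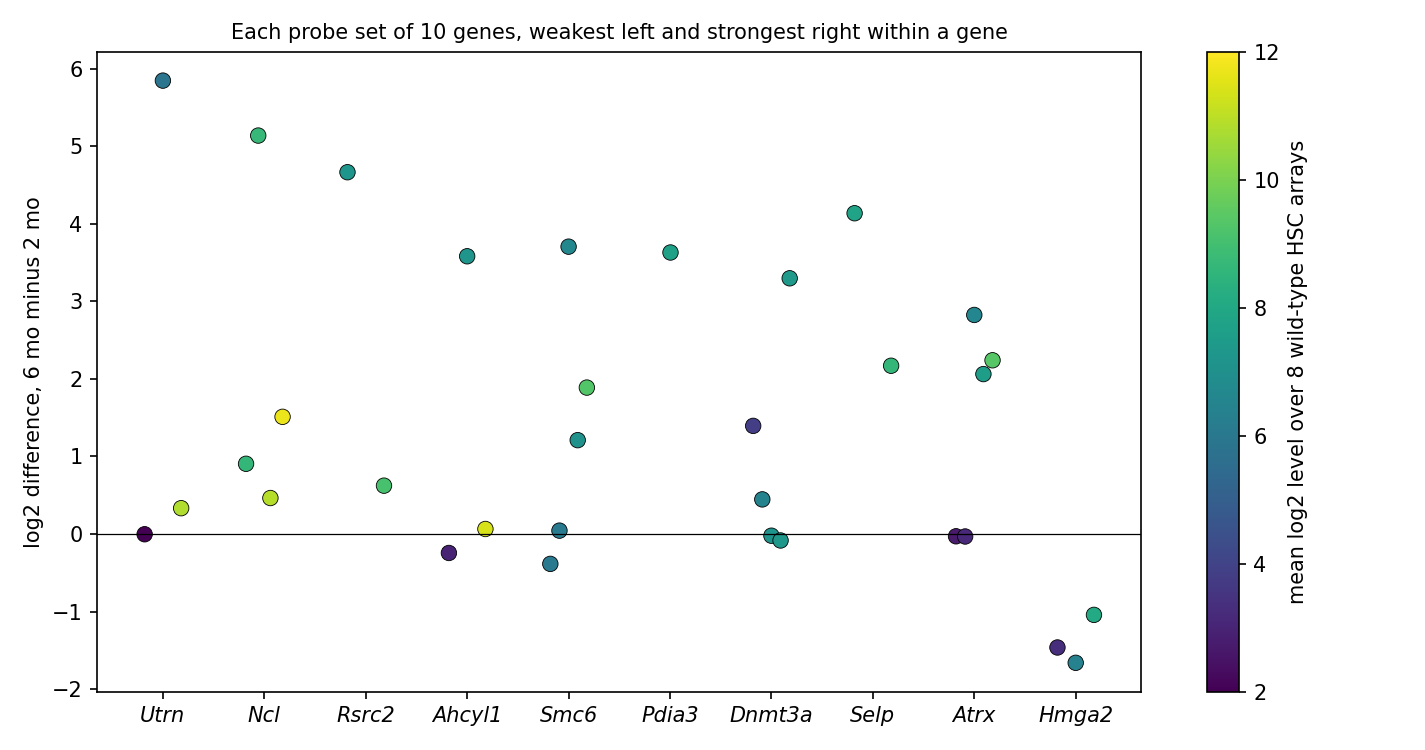
Log2 difference, 6 mo minus 2 mo (y axis), of every probe set of 10 genes, ordered within a gene by level and coloured by mean level over the 8 WT HSC arrays. Utrn and Ahcyl1 each combine one high point with stronger probe sets near 0, while all 3 probe sets of Hmga2 lie below 0 and both of Selp above 2.

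Among chromatin genes, Atrx was higher on several probe sets. Atrx, an SNF2-type remodeler of heterochromatin, read 10.54 and 10.21 at 6 mo, against 8.68 and 7.59 at 2 mo (2.24 ± 0.45, SE; limma adjusted p = 0.591). Its other probe sets above the floor differed by 2.82 and 2.06. Chd4, the ATPase of the NuRD complex, read 11.32 and 11.21 at 6 mo, against 10.37 and 9.65 at 2 mo, and was lower later (7.12 and 8.37 at 12 mo, 8.63 and 9.32 at 21 mo), while its other probe sets differed by 0.38 and 0.35. Smarca2, a SWI/SNF ATPase, read 11.22 and 12.00, against 10.57 and 10.39. These were the only 3 of 33 chromatin remodeling genes that were 2-fold higher without overlap (9.09%, against 1.13% of all genes), with 0 lower, and the list's median was −0.00734 beside −0.0183 over all genes. Malat1, a nuclear noncoding RNA named after its values were seen, read 14.09 and 13.70 at 6 mo, against 11.21 and 10.64 at 2 mo (2.97 ± 0.37, SE; limma adjusted p = 0.267), and 12.19 and 11.40 at 12 mo. Its probe sets disagreed in size and sign, with the other 3 above log2 5 differing by 1.33, 2.49 and −1.01.

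Neutrophil markers held the highest share of 2-fold lower genes among the lists. S100a8 and S100a9 encode the 2 subunits of calprotectin, Ngp and Camp encode granule proteins of maturing neutrophils, and Chil3 a secreted chitinase-like protein of myeloid cells. C/EBP factors drive granule genes in granulocyte development, so the 250 bases before the start of the 3 with the largest differences are shown with any match to the searched C/EBP-like letters, TTGCNNAA or its reverse complement TTNNGCAA, in capitals. They are from RefSeq on GRCm38.p6: S100a8 at chr3:90668821-90669070 (plus strand), S100a9 at chr3:90695722-90695971 (minus strand) and Ngp at chr9:110419558-110419807 (plus strand).
S100a8: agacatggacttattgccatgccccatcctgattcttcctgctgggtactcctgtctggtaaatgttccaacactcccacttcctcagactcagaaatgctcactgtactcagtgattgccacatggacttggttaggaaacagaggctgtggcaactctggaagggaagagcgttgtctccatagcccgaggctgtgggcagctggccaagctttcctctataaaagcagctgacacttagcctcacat
S100a9: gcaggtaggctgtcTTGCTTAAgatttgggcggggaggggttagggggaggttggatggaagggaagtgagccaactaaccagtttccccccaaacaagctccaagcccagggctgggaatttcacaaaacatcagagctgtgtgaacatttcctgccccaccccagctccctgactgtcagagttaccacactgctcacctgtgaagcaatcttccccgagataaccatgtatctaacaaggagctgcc
Ngp: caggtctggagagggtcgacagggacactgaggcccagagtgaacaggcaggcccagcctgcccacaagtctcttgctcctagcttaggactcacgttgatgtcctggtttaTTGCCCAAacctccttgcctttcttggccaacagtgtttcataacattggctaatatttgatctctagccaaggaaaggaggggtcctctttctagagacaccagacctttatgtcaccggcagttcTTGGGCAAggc
Ngp holds 2 matches and S100a9 1, and S100a8 holds 0 in this window, as does Camp, searched but not shown. Of 32851 promoter windows of that length, 9.56% hold at least 1.

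S100a8 read 4.35 and 5.70 at 6 mo, against 9.62 and 8.23 at 2 mo (−3.90 ± 1.20, SE). S100a9 read 4.82 and 5.53, against 8.22 and 7.56 (−2.72 ± 0.91). Ngp read 2.86 and 5.33, against 7.22 and 7.40 (−3.22 ± 1.13). For all 3 the 6 mo arrays lay below both 2 mo arrays, and the A and B arrays of later ages were also far apart. Camp read 4.42 and 4.39, against 6.58 and 6.39. Chil3 read 2.67 and 3.71, against 5.99 and 4.35. Of 16 neutrophil markers measured, 5 were 2-fold lower without overlap (31.2%, against 0.831% of all genes) and 0 higher. The other 11 include Mpo, Elane, Ltf and Lcn2, primary and secondary granule genes, which stayed below log2 5 on all 4 arrays. Prtn3, which encodes the primary granule protease proteinase 3, was above the floor and read 8.88 and 9.19 at 6 mo, against 8.46 and 8.36 at 2 mo. With Csf3r, the G-CSF receptor (8.21 and 8.30, against 8.06 and 8.06), it made 2 of the 16 that were higher on both 6 mo arrays (12.5%, against 10.7% of all genes at any size of difference). In WBM the 5 lower genes stood between 13.68 and 15.59, far above HSC of either age.

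In WT HSC, S100a8 and Ngp did not stay low. By age from youngest to oldest, S100a8 averaged 8.93, 5.02, 8.32 and 9.48, and Ngp 7.31, 4.09, 7.89 and 9.86. Both thus had their lowest WT mean at 6 mo. Low readings were not particular to 6 mo. In 12-mo-old p53_het HSC, S100a8 read 4.12 and 4.13 and Ngp 4.74 and 3.07, while p53m HSC read 6.59 and 8.47, and 6.76 and 7.60. Camp read 4.45 and 6.10 at 12 mo, and 7.87 and 4.63 at 21 mo. The log2 of the summed linear signal of the whole marker list was 9.83 and 10.15 at 6 mo, against 11.04 and 10.47 at 2 mo. In sorted bulk RNA, fewer cells of a type and less RNA per cell cannot be told apart, and the part of a few remaining granulocytes in these values was not tested.

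Igha and Jchain, transcripts of antibody-secreting cells, were higher at 6 mo. Igha, the heavy chain constant region of IgA, read 8.63 and 8.92 at 6 mo, against 2.68 and 2.29 at 2 mo (6.29 ± 1.98, SE), the largest difference named here, and its other probe sets differed by 5.85 and 2.56. Jchain, which links IgA and IgM polymers, read 6.57 and 9.0, against 5.27 and 3.23. Ighm overlapped between ages, with 7.0 and 10.87 at 6 mo, against 7.83 and 1.46 at 2 mo. The spread within an age was therefore as wide as the difference for Ighm, and Igha was scattered later too, at 8.75 and 3.45 on the 21 mo arrays. Prdm1, Irf4 and Tnfrsf17, which define plasma cells, stayed below log2 5 on all 4 arrays, as did 16 of 21 B lineage markers, among them Pax5, Ebf1, Ms4a1 and Cd79a. Of 9 genes in the plasma cell and immunoglobulin list, 2, Igha and Jchain, were 2-fold higher without overlap (22.2%, against 1.13% of all genes). The plasma cell surface proteoglycan Sdc1 was lower on both arrays (6.21 and 6.32, against 7.01 and 6.58), as was Ighg3, near the floor at both ages. The summed signal of the list was 12.15 and 12.46 at 6 mo, against 11.69 and 11.51 at 2 mo. WBM held 11.50 and 11.88 of Igha. The part of antibody-secreting cells or of free transcript was not tested.

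Of the MHC class II genes, which present peptides to CD4 T cells and are switched on together by CIITA, several were higher as well. Of 9 measured, 4 were 2-fold higher without overlap (44.4%, against 1.13% of all genes) and 0 were lower. The list median of 0.399 depended on the 6 mo array, at 0.114 without 6 mo B and 0.684 without 6 mo A. Class II promoters carry a Y box, so the 250 bases before the start of the α and β chain genes H2-Aa (chr17:34287824-34288073, minus strand) and H2-Eb1 (chr17:34305617-34305866, plus strand; RefSeq, GRCm38.p6) are shown with ATTGG or its reverse complement, CCAAT, in capitals.
H2-Aa: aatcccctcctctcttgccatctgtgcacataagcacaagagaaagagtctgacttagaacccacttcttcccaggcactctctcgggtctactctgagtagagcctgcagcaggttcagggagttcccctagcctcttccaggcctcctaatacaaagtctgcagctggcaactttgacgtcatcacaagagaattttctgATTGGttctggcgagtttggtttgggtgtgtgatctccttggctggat
H2-Eb1: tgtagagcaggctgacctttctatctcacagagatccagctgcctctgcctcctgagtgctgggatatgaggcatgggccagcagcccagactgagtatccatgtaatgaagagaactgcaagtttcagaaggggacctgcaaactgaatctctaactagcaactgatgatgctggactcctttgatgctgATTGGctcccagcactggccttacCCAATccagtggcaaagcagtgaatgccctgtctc
The match in H2-Aa begins 48 bases before the start and those in H2-Eb1 59 and 35 bases before it, and 33.8% of all promoter windows of that length hold at least 1 such match.

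H2-Aa read 11.46 and 12.03 at 6 mo, against 10.48 and 10.13 at 2 mo (1.43 ± 0.49, SE), and its second probe set differed by 1.96. H2-Eb1 read 9.03 and 9.52, against 8.01 and 7.78 (1.38 ± 0.45). H2-Ab1 read 9.5 and 10.16, against 8.82 and 8.49, and all 3 of its probe sets were higher. Cd74, the invariant chain, read 8.65 and 7.28, against 6.74 and 6.30. At 12 and 21 mo the means were 11.53 and 11.63 for H2-Aa and 9.05 and 9.41 for H2-Ab1, with the 12 mo arrays of H2-Ab1 at 9.70 and 8.41, the second of them below both 2 mo arrays. Ciita itself was below log2 5 on all 4 arrays. The B lineage markers were mixed, with 3 of 21 higher (14.3%) and 5 lower (23.8%) on both 6 mo arrays at any size of difference, beside 10.7% and 25.1% of all genes. Cd79b, a B cell receptor subunit, read 6.16 and 6.67 at 6 mo, against 7.60 and 7.91 at 2 mo, and Cd72, a B cell coreceptor, 8.37 and 9.04, against 7.87 and 7.70. Of 20 monocyte and macrophage markers 2 were higher and 6 lower by the same count. Cd14, a coreceptor for lipopolysaccharide, read 9.58 and 9.46, against 8.05 and 8.71, while Irf8, a transcription factor of monocyte development, read 5.04 and 4.53, against 5.18 and 5.57.

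**Figure D3:**
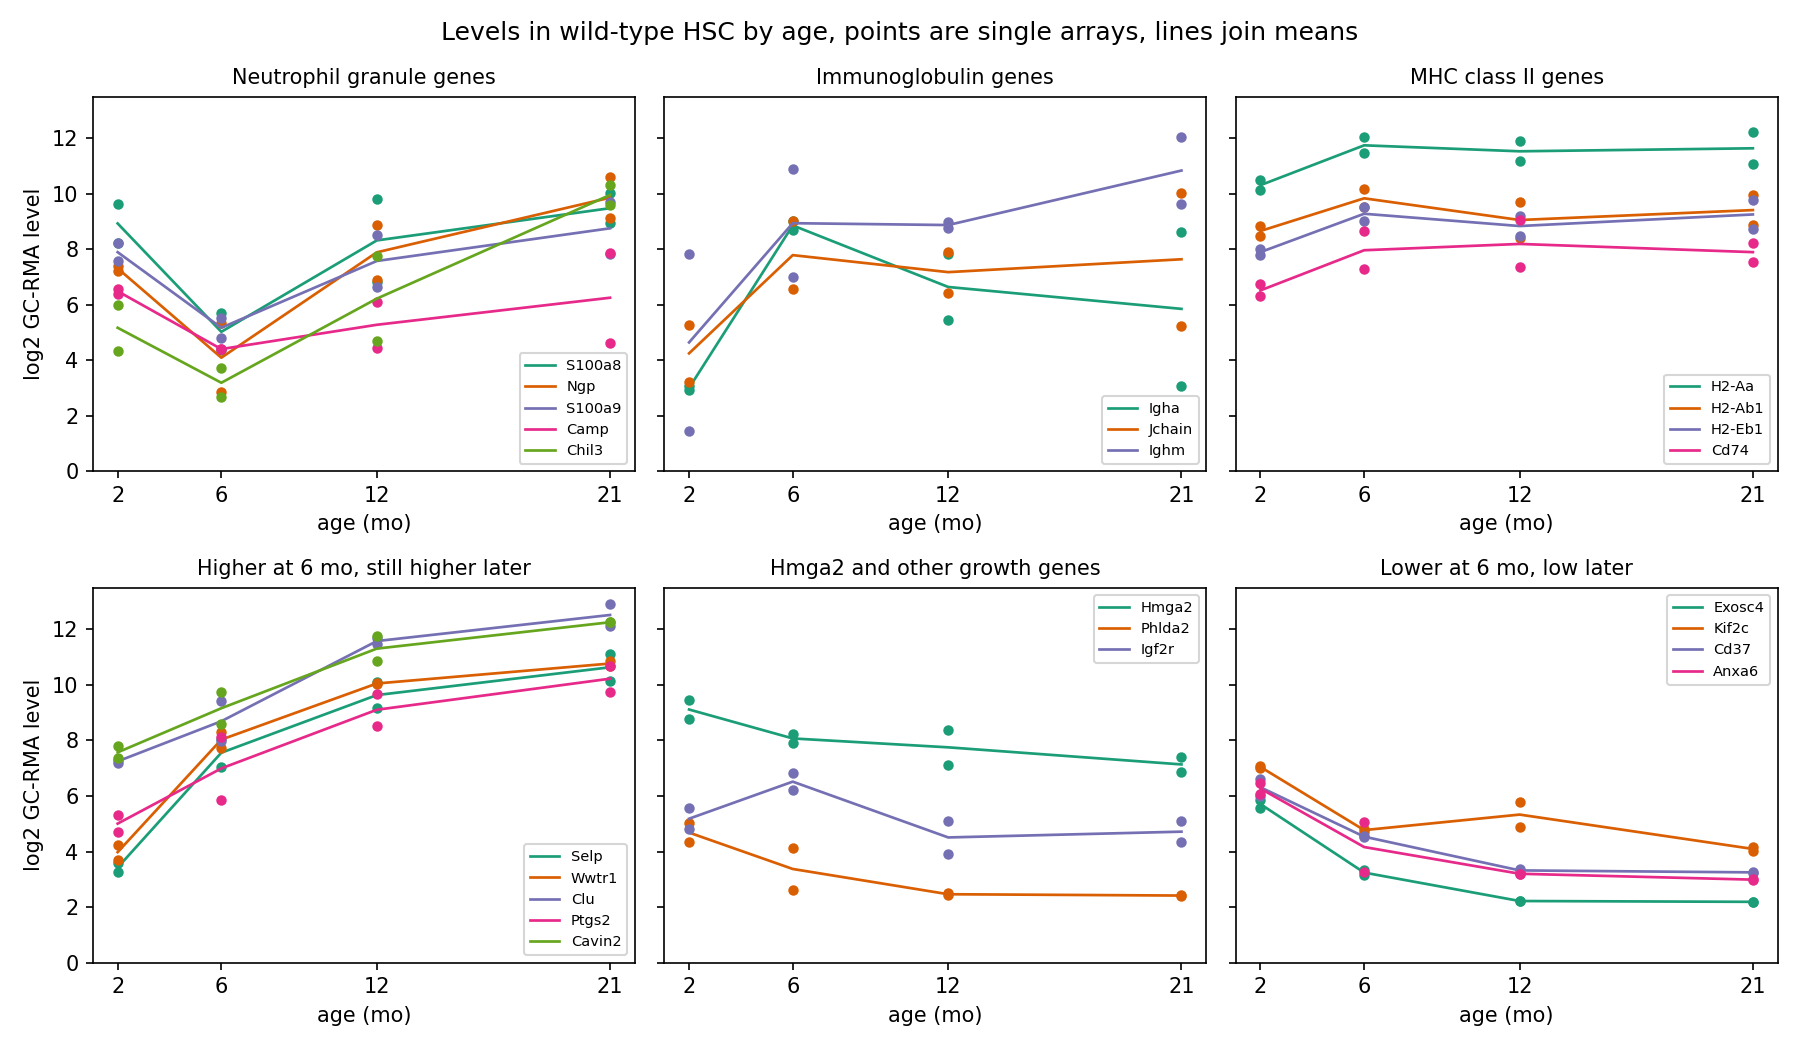
Log2 GC-RMA level (y axis) of genes of 6 groups in WT HSC by age in months (x axis), with points for single arrays and lines joining the means of 2 arrays. Neutrophil genes have their lowest mean at 6 mo, the MHC class II genes have means at 12 and 21 mo above their 2 mo mean, and Selp, Wwtr1, Clu, Ptgs2 and Cavin2 are higher at each later age.

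Of the genes of fetal and juvenile growth, Hmga2, a chromatin protein that sustains self-renewal of fetal and young HSC and is silenced by let-7 miRNAs, was lower on every one of its 3 probe sets. It read 7.90 and 8.24 at 6 mo, against 8.78 and 9.45 at 2 mo, on the strongest (−1.04 ± 0.51, SE), and 6.51 and 6.43, against 7.88 and 8.39, on another. Phlda2, an imprinted growth-restraining gene, read 4.11 and 2.63, against 4.34 and 5.03. Igf2r, the imprinted receptor that clears IGF2, was higher, with 6.83 and 6.20, against 4.80 and 5.56, on one probe set and near the floor on the other. Of 22 such genes measured, 2 were 2-fold lower without overlap (9.09%, against 0.831% of all genes), 1 was higher (4.55%, against 1.13%), and 11 were below log2 5 on all 4 arrays.

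More cell cycle genes were lower than higher, by small amounts. Among 42 measured genes of DNA replication and mitosis, 15 were lower on both 6 mo arrays and 1 was higher, or 35.7% and 2.38%, beside 25.1% and 10.7% of all genes at any size of difference. Their median difference was −0.211, beside −0.0183 over all genes, and 0 of the 42 reached 2-fold without overlap in either direction. Among genes expressed at log2 5 or above on at least 2 of the 8 WT HSC arrays, 22.4% were lower and 18.5% higher. Kif2c, a mitotic kinesin that depolymerizes microtubules, is not on that list. It read 4.82 and 4.72 at 6 mo, against 7.07 and 7.02 at 2 mo (−2.27 ± 0.29, SE; limma adjusted p = 0.291, and 0.0296 without the 12 mo arrays), and its other probe sets were near the floor. Chek1, the replication checkpoint kinase, read 7.78 and 7.05, against 8.18 and 8.81, and Polk, a translesion polymerase, read 8.96 and 9.5, against 10.28 and 10.65. In the list of 60 DNA repair genes, 3 were 2-fold lower without overlap, Polk, Chek1 and Pms2 (5.0%, against 0.831% of all genes), and 1 was higher (1.67%, against 1.13%), the end-joining factor Xrcc4, which read 6.47 and 6.66, against 6.38 and 4.53. Pms2 was near the floor at both ages, with 2.90 and 3.15 at 6 mo, against 3.82 and 4.49 at 2 mo.

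The remaining leading lower genes were membrane proteins and their partners. Slc15a2, a peptide transporter, read 10.66 and 9.04 at 6 mo, against 12.20 and 12.07 at 2 mo (−2.29 ± 0.57, SE), and 11.37 and 11.93 at 12 mo. Lrp1, an endocytic receptor, read 4.84 and 4.57, against 6.43 and 7.13, and Cd37, a leukocyte tetraspanin, 4.55 and 4.52, against 6.00 and 6.63. On its stronger probe set Cd37 read 6.64 and 7.72, against 7.81 and 7.74, a difference of only −0.59. Anxa6, a calcium-dependent membrane-binding protein, was lower on all 3 of its probe sets, by −2.10, −0.89 and −0.77. On the strongest, Anxa6 read 7.74 and 7.74, against 8.59 and 8.66, and at 21 mo lower still (4.08 and 4.20).

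None of the 33 HSC markers measured passed limma's adjusted test. Procr, the endothelial protein C receptor carried by HSC, read 13.07 and 13.19 at 6 mo, against 12.78 and 13.0 at 2 mo, beside 4.41 and 4.14 in WBM. Kit, the receptor used in the sort, read 9.26 and 9.06, against 8.24 and 8.34 (0.87 ± 0.54, SE). Cd34 and Flt3, markers of short-term HSC and progenitors, overlapped between ages, with Cd34 at 10.31 and 11.21, against 10.51 and 10.64, and Flt3 at 7.74 and 9.05, against 9.03 and 8.10. Slamf1 stood near log2 5 at both ages. Abcb1b, a multidrug efflux pump, read 8.20 and 7.88 at 6 mo, against 7.24 and 6.97 at 2 mo (0.94 ± 0.24), while 10 of the 22 ABC transporters measured were lower on both 6 mo arrays (45.5%, against 25.1% of all genes) and 3 higher (13.6%, against 10.7%). Over the 33 HSC markers the median difference was 0.172, with 1 gene 2-fold higher without overlap, the sulfotransferase Sult1a1 (8.80 and 7.28, against 6.87 and 6.88; 3.03% of the list, against 1.13% of all genes), and 0 lower.

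In some lists one direction outnumbered the other, by differences mostly under 2-fold. Of 71 oxidative phosphorylation genes measured, which encode the mitochondrial respiratory chain and ATP synthase, 32 (45.1%) were below 2 mo on both 6 mo arrays and 6 (8.45%) above, beside 25.1% and 10.7% of all genes. Their median was −0.325, with 56 of negative and 15 of positive sign. Mitochondrial ribosomal protein genes, which serve translation inside the organelle, showed 32 of 74 lower (43.2%) and 4 higher (5.41%), with a median of −0.244 and 14 of positive sign. All 71 oxidative phosphorylation genes were expressed at log2 5 or above on at least 2 WT HSC arrays, as were 6384 genes in all. For cytosolic ribosomal proteins the shares were close to the background, with 28.6% lower and 14.3% higher.

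Members of these mitochondrial lists differed by about 2-fold at most. Mrpl43 read 6.82 and 6.50 at 6 mo, against 7.66 and 7.69 at 2 mo (−1.01 ± 0.16, SE; limma adjusted p = 0.4), and Mrps18a 7.27 and 6.02, against 7.5 and 7.90. Atp5k, a subunit of ATP synthase, read 8.81 and 8.06, against 9.78 and 8.95. The size depended on 6 mo B, since the median of the oxidative phosphorylation list was −0.158 without it and −0.43 without 6 mo A. The mitochondrial ribosomal median was −0.133 and −0.328 under the same omissions. The part of array quality in these medians was not tested.

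Among protein folding and immediate early genes, higher genes outnumbered lower ones. For comparison, 10.7% of all genes were higher and 25.1% lower on both 6 mo arrays, and 18.5% and 22.4% of expressed genes. Of 41 cytosolic chaperones, 21 were higher on both 6 mo arrays (51.2%) and 4 lower (9.76%), with a median of 0.345 that lay between 0.243 and 0.385 with any one of the 4 arrays left out. Dnajc2, a ribosome-associated cochaperone, read 10.61 and 10.57 at 6 mo, against 9.75 and 9.65 at 2 mo. Dnaja2, an Hsp40, read 7.51 and 8.02, against 6.04 and 6.66 (1.42 ± 1.58, SE). On the other probe set of Dnaja2 the ages overlapped, with a difference of 0.05. Among 33 AP-1 and immediate early genes, whose transcripts are induced within minutes by growth factors, 15 were higher (45.5%) and 2 lower (6.06%), with a median of 0.302 that was 0.171 without 6 mo A and 0.457 without 6 mo B. Fosb read 7.75 and 8.33, against 7.41 and 4.38, so that the gap rests on 2 mo B, and Atf3 read 9.03 and 8.60, against 7.99 and 6.87.

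Other lists with the same lean were those of ER chaperones (12 of 33 higher, 36.4%, and 3 lower, 9.09%) and lysosome and autophagy (14 of 39 higher, 35.9%, and 3 lower, 7.69%). Glycolysis (9 of 21 higher, 42.9%, and 1 lower, 4.76%) and splicing factors (17 of 47 higher, 36.2%, and 3 lower, 6.38%) leaned alike. Among all genes 10.7% were higher and 25.1% lower. The splicing median of 0.173 was 0.105 without 6 mo B and 0.298 without 6 mo A. In the splicing list Hnrnpm read 8.49 and 9.61 at 6 mo, against 7.29 and 7.87 at 2 mo, and Srsf5 11.34 and 12.19, against 10.86 and 11.07. Glycolysis genes were mixed in size, with Hk2, a hexokinase, at 7.99 and 7.98, against 7.41 and 6.97, and Eno2, an enolase, at 7.75 and 6.44, against 8.43 and 8.09. Lists close to the shares of expressed genes, 18.5% higher and 22.4% lower, included interferon-induced genes (5 of 30 higher, 7 lower), NF-kB subunits and regulators (5 of 23 higher, 5 lower) and proteasome genes (7 of 38 higher, 9 lower). Among TGF-beta and SMAD genes 2 of 30 were 2-fold higher without overlap, Bmpr1a and Id2 (6.67%, against 1.13% of all genes), and 2 were lower, Acvr2b and Smad6 (6.67%, against 0.831%). Both lower genes stayed below log2 5 on every 6 mo and 2 mo array, near the floor. Bmpr1a, a BMP receptor, read 6.40 and 5.86, against 4.65 and 5.17.

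**Figure D4:**
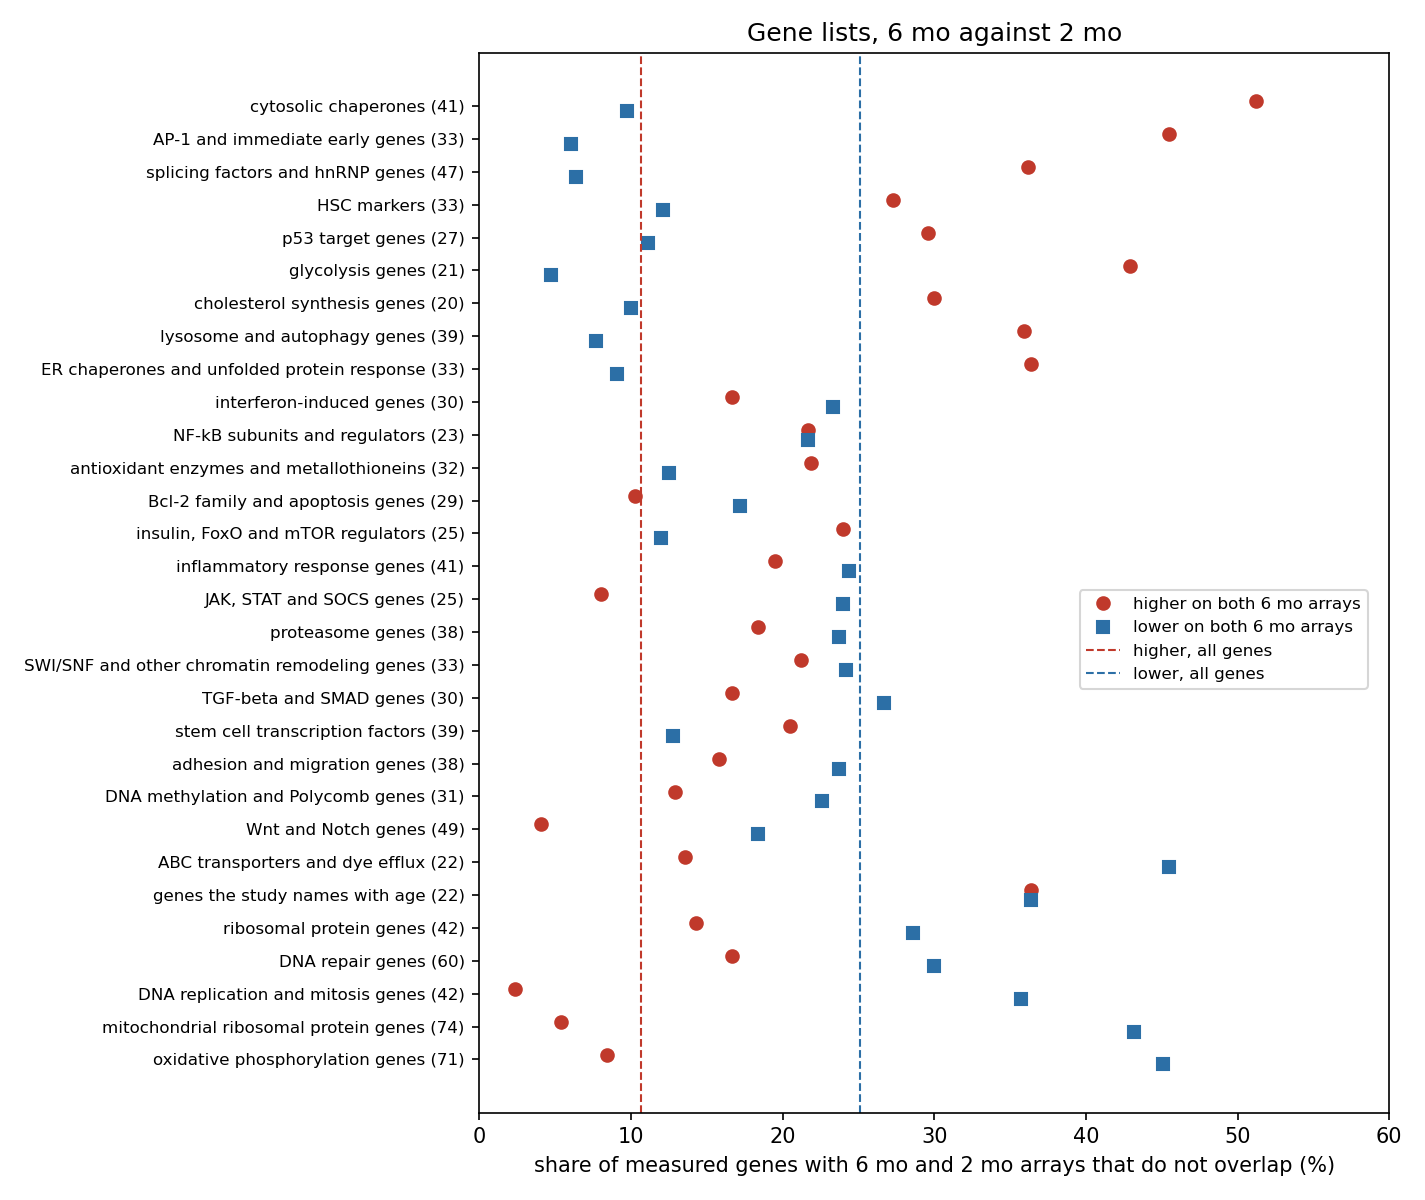
Share of the measured genes of each list (number in brackets) that were higher (red circles) or lower (blue squares) on both 6 mo arrays than on both 2 mo arrays, with dashed lines at 10.7% and 25.1% for all genes. Chaperone, immediate early, splicing and lysosome genes lie right of the red line, and mitochondrial genes right of the blue one. Expressed genes as a whole stood at 18.5% higher and 22.4% lower, so lists near those shares, such as proteasome genes, also lie right of the red line.

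**Figure D5:**
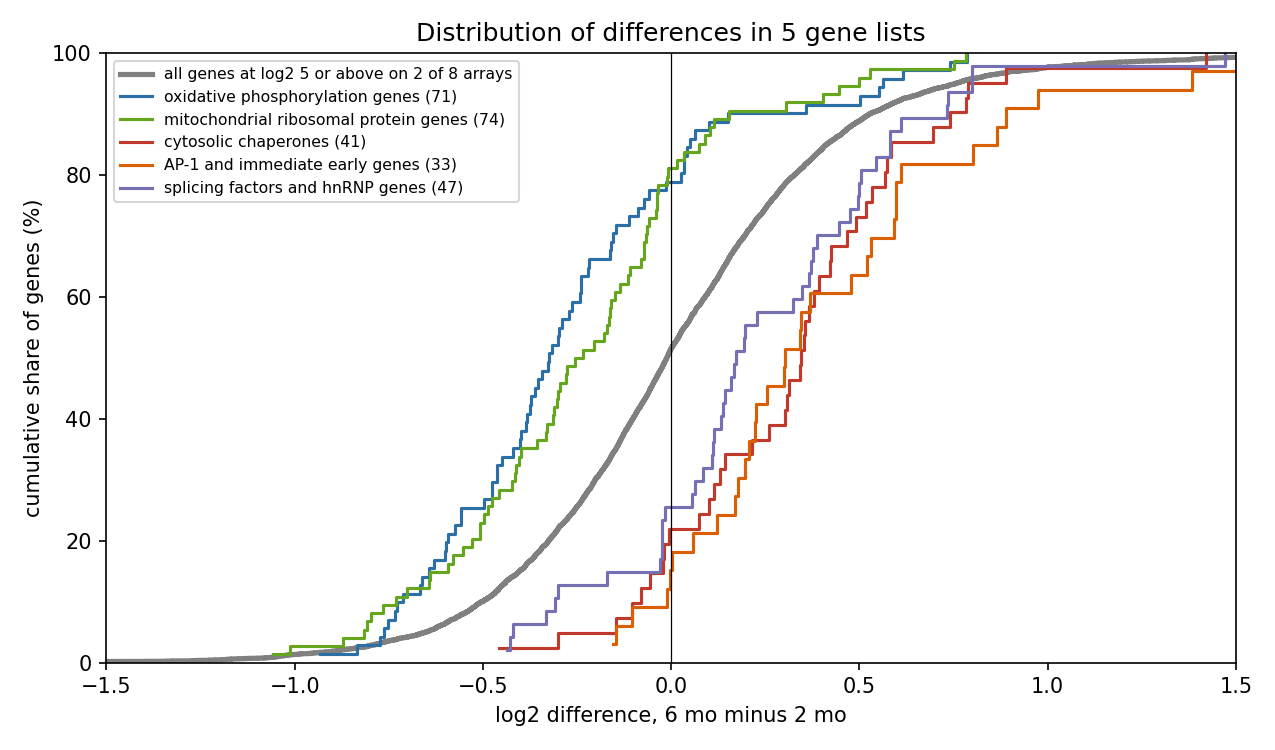
Cumulative share of genes (y axis, %) by log2 difference, 6 mo minus 2 mo (x axis), for all measured genes of 5 lists, expressed or not, and for 6384 expressed genes in grey. The mitochondrial curves lie left of the grey one, with medians of −0.325 and −0.244, and those of chaperones, immediate early genes and splicing factors right of it, with medians of 0.345, 0.302 and 0.173.

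The departure of 6 mo from the mean of 2 and 21 mo was read in the same fit. As 6 mo is not midway between those ages, a steady change with age also gives a departure. No probe set passed the adjusted test at 2-fold, with 0 above (0.0%) and 0 below (0.0%), and at an unadjusted p 153 lay above (0.676%) and 113 below (0.499%). Above it were Gcnt2, a glycosyltransferase that read 7.80 and 8.25 at 6 mo, against 7.32 and 7.02 at 2 mo and 3.60 and 5.05 at 21 mo, and Kmt5b, an H4K20 methyltransferase, with a departure of 2.17 ± 0.69 (SE). Each of these rests on 1 probe set. The strongest probe set of Gcnt2 read 8.43 and 9.14 at 6 mo, against 8.22 and 8.16 at 2 mo and 9.56 and 9.34 at 21 mo, a departure of −0.03 ± 0.54 (SE). That of Kmt5b read 8.82 and 8.76 at 6 mo, against 8.40 and 8.96 at 2 mo and 8.30 and 8.89 at 21 mo, a departure of 0.15 ± 0.30. Clnk, an adaptor of immune receptor signaling named after its values were seen, was above the 2 mo level at 6 mo only, at 4.18 and 5.25, against 2.33 and 1.94, with all 12 and 21 mo arrays between 1.80 and 1.97. Below it were the neutrophil genes, with departures of −4.49 ± 0.98 for Ngp, −4.37 ± 1.03 for Chil3 and −4.18 ± 1.04 for S100a8.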

How the data were processed

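RNA of sorted HSC was hybridized to Affymetrix MOE430A arrays. The deposited values are the authors' GC-RMA levels on the log2 scale, of which 22626 probe sets were used and 64 controls set aside; the version of GCRMA, named in the submitters' processing notes, is not given in the sources used here. GC-RMA corrects background by GC content and normalizes between arrays, so levels below about 5 carry little information. The probe table supplied with the series gave 1 symbol to 20380 probe sets, several to 691 and none to 1555. Where several probe sets shared a symbol, the one with the greatest average in the 8 WT HSC arrays stood for the gene.

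Group means over those 8 arrays were fitted with limma 3.58.1 in R 4.3.3 (lmFit, eBayes, no low-value filter), with Benjamini-Hochberg adjustment calling probe sets at least 2-fold apart with an adjusted p under 0.05. On simulated data for 6 mo minus 2 mo (22626 probe sets), simulated log2 changes of 1, 2 and 4 were recovered in 22 of 67, 42 of 67 and 59 of 66 cases, with 3 false calls. The simulated noise was normal and independent between arrays, with each probe set's own spread within ages. Changes were placed at random over all probe sets, those near the floor included, so the counts do not describe expressed probe sets alone or effects shared by an array.

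Members and gene lists were chosen with earlier results of these data known. Genes named are 10 each way (those past the threshold first, then the largest differences at an unadjusted p under 0.05), from each list at most 4 called members or else the 2 most different, the largest departures from the mean of 2 and 21 mo, and 5 sort markers. Others are members 2-fold apart without overlap, or genes called with more arrays, chosen after their values were seen. One gene that the rule picked among those higher at 6 mo is not reported here. Alternatives varied the arrays in the fit, the model, normalization, filter, threshold and replicates. The 2 arrays per age limit the precision.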

Additional observations from a re-analysis of the deposited data

Results flagged for a closer look

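The control probe set for the 5′ end of β-actin, which no comparison used, was higher on both 6 mo arrays, at 9.58 and 11.28, against 9.21 and 9.30 at 2 mo, a difference of 1.174. The middle probe set read 11.12 and 12.28, against 10.79 and 10.89, and the 3′ probe set 13.80 and 14.55, against 13.81 and 13.95. The cause was not tested.

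Mmgt2 departed from the mean of 2 and 21 mo by −0.52642 at 6 mo (limma adjusted p = 0.0444), which means that its differences from 2 to 6 mo and from 6 to 21 mo were unequal. All its levels lay below log2 3, near the floor of the array, where spreads between arrays are small.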

How the results depend on the processing

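Few differences passed with 2 arrays per age, and the number of calls changed with the arrays that set the spread. Higher and lower probe sets numbered 6 and 4 without the 12 mo arrays, 5 and 7 with all 12 HSC arrays, and 14 and 9 with all 14 arrays. These gave 30 different probe sets, of which 3 (Exosc4, Mmgt2 and Fam189b) were called with all 3 sets of arrays. The counts were 0 and 0 with the 4 arrays of 6 and 2 mo, a quadratic trend in age, or arrays shifted to one median, 0 and 1 after quantile normalization, 2 and 0 with low probe sets left out, and 186 and 77 at an unadjusted p. Leaving out 1 array at a time gave 0 to 6 higher and 0 to 12 lower, with 12 lower without 2 mo A, 11 without 2 mo B, and 6 and 4 without either 12 mo array. Departures above and below the mean of 2 and 21 mo numbered 13 and 18 without the 12 mo arrays, 4 and 6 with 12 arrays, 8 and 9 with 14 arrays, 1 and 2 with array weights, 2 and 3 with no fold threshold, 153 and 113 at an unadjusted p, 7 below with a quadratic trend, and 0 to 13 above and 0 to 18 below with 1 array left out (7 and 4 without 6 mo B, 10 below without 21 mo A). With the letters A and B as a replicate block, 0 rose and 0 fell; the A minus B differences of 6 and 2 mo correlated at −0.0424 over probe sets, and those of all pairs of ages between −0.307 and 0.134, so the letters do not pair the arrays. Among 64 named probe sets and 20 settings, 57 kept their direction throughout. A quadratic trend turned Igf2r (−0.17), Chd4 (−1.03), Gcnt2 (−0.21) and Kmt5b (−0.39), and leaving out 1 array gave ranges of −0.26 to 0.63 for Cd34, −0.82 to 0.49 for Flt3 and −0.13 to 0.48 for Slamf1; the cause was not tested. The 2-fold counts without overlap, tried after seeing the data, were 356 higher and 186 lower after quantile normalization (65.7% higher), 424 and 139 with arrays shifted to one median (75.3%), and 355 and 131 with low probe sets left out (73%). Of 45 list medians, 18 changed by more than the spread between arrays in some setting.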

Other observations

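Some genes were called only when other sets of arrays gave the spread. With all 14 arrays in the fit, Ddx6, an RNA helicase of processing bodies, was called higher (11.02 and 10.99 at 6 mo, against 9.07 and 8.67 at 2 mo; limma adjusted p = 0.0462), as was Smc1a, a cohesin subunit (12.22 and 12.19, against 10.88 and 10.45; adjusted p = 0.0246). Without the 12 mo arrays, Usp14, a proteasome-bound deubiquitinase, was called higher from a level near the floor (4.47 and 4.40, against 2.72 and 2.64; adjusted p = 0.0296). It read 6.49 and 6.44 at 21 mo, while its stronger probe sets differed by 0.09 and 0.35. Knop1, a nucleolar protein, was called higher in the same fit (6.24 and 6.32, against 4.88 and 4.93; adjusted p = 0.0402) and read 4.28 and 4.20 at 21 mo, while its other probe set differed by −0.02. These genes were named after their values were seen.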
